A study of Mus musculus with 2 samples.

Results

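The proteasome genes described here are the 50 protein-coding genes whose mouse symbol begins with Psma, Psmb, Psmc, Psmd, Psme, Psmf or Psmg, out of 43346 mouse genes measured in newborn heart. Genes were taken by symbol alone, and every gene of that description in the tables is included, although the group was chosen with earlier results of these data known. RNA came from whole hearts of B6NCrl mice at postnatal day 0 with no treatment named, with 1 heart per library and the sex not collected. Pup 1 gave replicate 1 and pup 3 gave replicate 2, each library using 13 pg of RNA, given as 1 cell-equivalent. Libraries followed a Smart-seq protocol, which copies polyadenylated RNA to cDNA and amplifies it by PCR. The sample descriptions nevertheless call them total RNA-seq. Although titled single cell RNA-seq, they hold RNA of whole tissue. The 2 libraries form 1 group with no treated or control arm, so each value is given per library or as mean ± SD (n = 2), and no test between groups was possible. The same donor identifier stands on both samples, so the spread may be partly technical. All 6 cardiomyocyte markers were read in both libraries, as were all 6 endothelial markers, and the cardiomyocyte markers summed to 38518 and 65168 TPM in replicates 1 and 2.

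The proteasome is the large protease that breaks down ubiquitin-tagged proteins in the cytosol and nucleus. Its barrel, the 20S core, has outer rings of alpha subunits that gate the channel and inner rings of beta subunits, of which beta1, beta2 and beta5 cut the protein chain. The 19S cap binds the tagged protein, removes its ubiquitin, unfolds it with a ring of ATPases and feeds it into the core. In immune cells and under interferon gamma, the cutting subunits are exchanged for inducible forms to make the immunoproteasome. Heart muscle depends on this system to replace contractile proteins.

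By class, the 50 genes were 7 alpha ring genes and 7 beta ring genes of the core, 3 inducible catalytic genes of the immunoproteasome, the thymus form Psmb11, the testis form Psma8, 6 cap ATPases, 11 cap subunits without ATPase activity, 5 activators, 1 inhibitor, 4 chaperones of core assembly and 3 of cap assembly. The last gene, Psmc3ip, fits the naming rule but encodes a protein of meiotic recombination and is no subunit. Replicate 1 held 262900 expected counts on these genes, or 0.663% of mouse counts (exact Clopper-Pearson 95% interval 0.660 to 0.665%). Replicate 2 held 258837, or 0.790% (0.787 to 0.793%). These intervals cover counting error only, since reads were not counted by molecular identifier. In TPM, transcripts per 1000000 scaled by length over mouse genes, the members took 0.715% in replicate 1 and 0.887% in replicate 2.

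Most of the genes were expressed well above the typical gene. Both libraries read 43 of the 50 (86.0%) at no less than 1 TPM, where 28.4% of the 21474 protein-coding genes passed that mark. The 43 had a median level of 182 TPM, against 31.1 TPM for all 6105 protein-coding genes read in both. A mean of 100 TPM or more was reached by 31 of the 50, and by 5.42% of protein-coding genes. The exceptions were few: 5 members passed 1 TPM in 1 library alone, namely Psmb8, Psme4, Psmf1, Psma8 and Psmd10, and 2 passed in neither, Psmb9 and Psmb11.

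**Figure D1:**
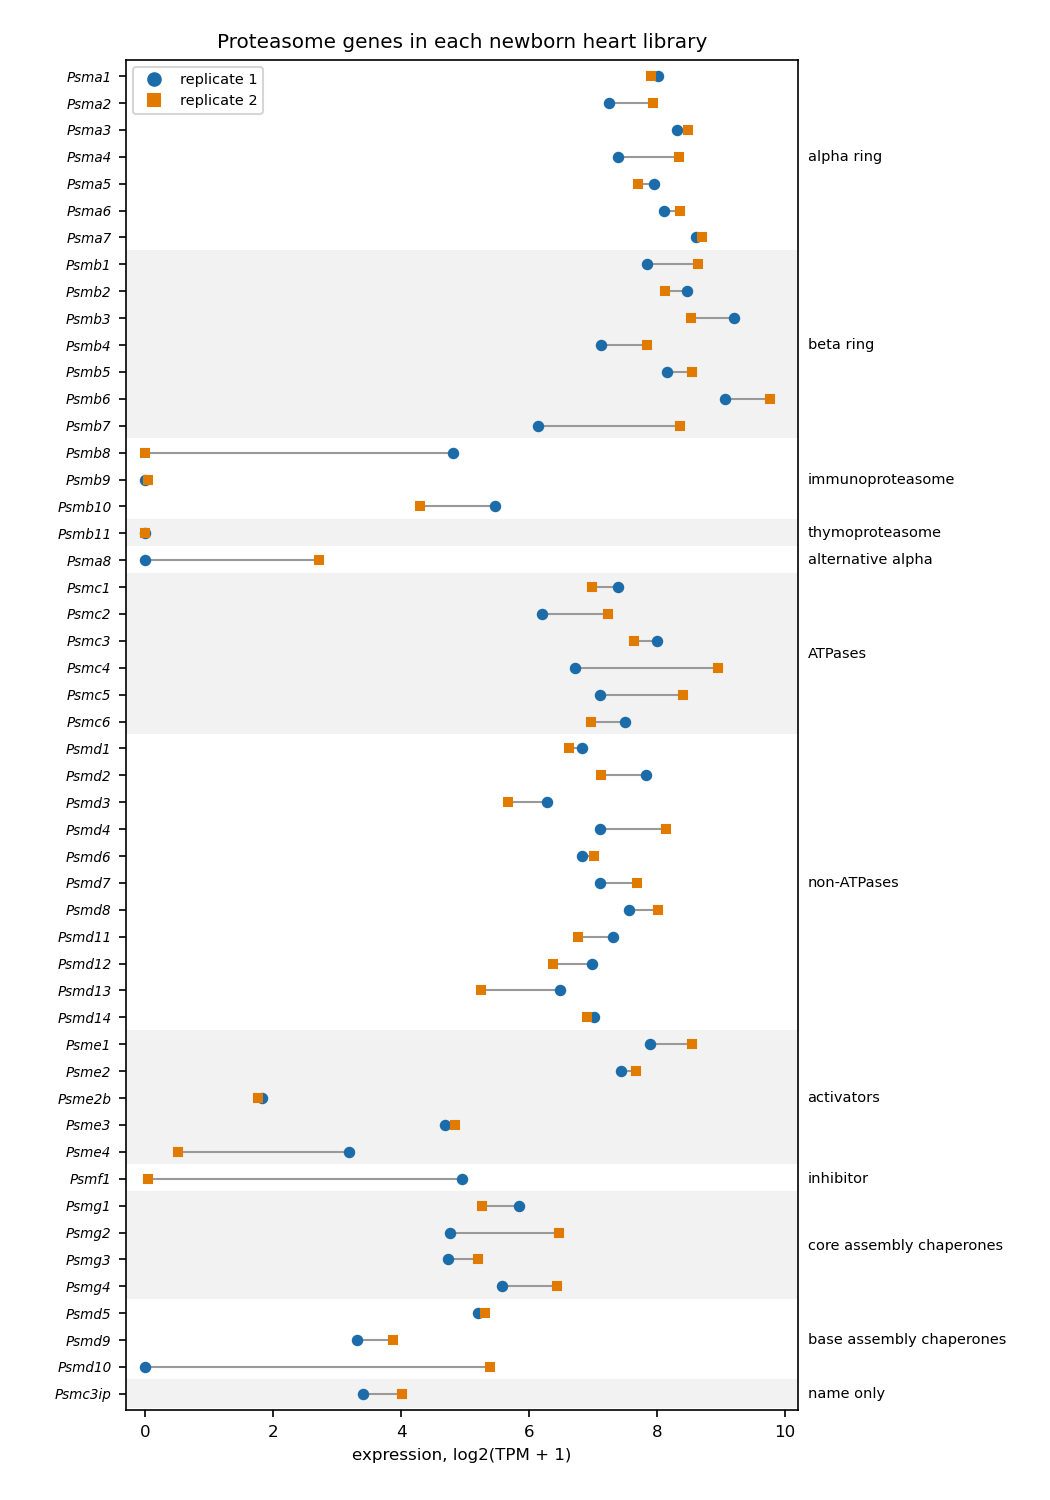
Expression of the 50 genes on the log2(TPM + 1) axis, grouped by class, with a circle for replicate 1, a square for replicate 2 and a line joining them. Most core and cap genes sit at the right, with longer lines for Psmc4 and Psmb7. Of the 31 core and cap genes, 25 were within 2-fold and 6 were over 2-fold apart. Most of the 31 averaged at least 100 TPM, and 20% of all 1241 mouse genes at that level were over 2-fold apart. Psmb8, Psmf1 and Psmd10 run from near 0 in 1 library to between 27.1 and 40.8 TPM in the other.

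The alpha ring was more even than the beta ring. Psma7 (chromosome 2, 180036374 to 180042433, minus strand, mm10), which encodes alpha4, led it with 387 and 416 TPM in replicates 1 and 2. Psma1, the alpha6 gene, had 258 and 239 TPM, Psma6 (alpha1) had 274 and 326 TPM, and Psma5 (alpha5) had 246 and 207 TPM. Psma2 (alpha2) and Psma4 (alpha3) were the furthest apart of the class, with 151 and 167 TPM in replicate 1, against 244 and 323 TPM in replicate 2. None of the 7 was over 2-fold apart between the libraries. All 7 averaged above 100 TPM, where 20% of all 1241 mouse genes were over 2-fold apart. With 7 genes, the class cannot be told apart from that share. The highest gene stood 2.57-fold above the lowest in replicate 1 and 2.01-fold in replicate 2. These ranges use the whole level of Psma3, of which protein-coding transcripts held 50.5% and 31.6% in replicates 1 and 2. The class median was 291 ± 46.2 TPM (SD of the library medians, n = 2).

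Psma3, the alpha7 gene, needs a separate reading. It had 316 and 357 TPM in replicates 1 and 2, but 43.8% and 40.5% of that TPM lay on transcripts annotated with a retained intron, and protein-coding transcripts held 50.5% and 31.6%. A pseudogene on chromosome 6, Gm13835, matches a transcript of Psma3 at 100% identity over its whole length and was assigned 99.4 and 71.5 TPM in replicates 1 and 2. Reads can be shared between the gene and this copy, so the level of Psma3 and its transcript shares are uncertain. The size of that uncertainty was not measured. Across the 50 genes, 14 had a pseudogene copy of at least 90% identity over at least 50% of its length, and all copies but those of Psma3 and Psma5 held under 1% of the TPM of their parent gene in each library.

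The testis-specific alternative to Psma7, Psma8, had 0 counts in replicate 1 and 242 counts (5.54 TPM) in replicate 2. Of the other male germ cell markers Ddx4, Sycp3 and Dmc1, none had a count in either library. With 3 counts as the limit that a count of 0 allows, the read share of Psma8 was at least 97.7-fold higher in replicate 2. This bound covers counting error only. In that library it stood at 1.33% of Psma7.

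The beta ring covered a wider range. Psmb6 (chromosome 11, 70525367 to 70527858, plus strand), the gene of the caspase-like subunit beta1, had the highest mean of all 50 genes, at 699.6 ± 236 TPM, from 533 and 866 TPM in replicates 1 and 2. Psmb3, which encodes the non-catalytic beta3, followed at 479 ± 157 TPM, with 590.2 and 367 TPM in replicates 1 and 2. Their order was thus opposite in the libraries and lies within the spread. Psmb5, the gene of the chymotrypsin-like beta5 that is the main target of proteasome inhibitors, had 283 and 373 TPM.

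Among the remaining non-catalytic genes of the ring, Psmb2 (beta4) had 353 and 278 TPM in replicates 1 and 2, and Psmb1 (beta6) had 229 and 398 TPM. Psmb4 (beta7) was lower, with 138 and 229 TPM, and 53.9% and 45.4% of it lay on retained-intron transcripts. Psmb7, which encodes the trypsin-like beta2, was the single core gene over 2-fold apart. It had 2374 counts and 69.8 TPM in replicate 1, against 9309 counts and 326 TPM in replicate 2. It was the lowest core gene in replicate 1, 8.46-fold below Psmb3, and stood at the core median (326 TPM) in replicate 2.

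The inducible catalytic genes were far below their constitutive partners in most library and gene combinations. In replicate 1, Psmb8 (beta5i, chromosome 17, 34197721 to 34201454, plus strand) had 827 counts and 27.1 TPM, or 9.57% of Psmb5. In replicate 2 it had 0 counts, and its read share was at least 228-fold higher in replicate 1 with 3 counts as the limit for the empty library, a bound that covers counting error only. Psmb9 (beta1i) had 0 counts in replicate 1 and 1.10 in replicate 2, where Psmb6 held 11964 and 16423 counts. Psmb10 (beta2i, chromosome 8, 105935735 to 105938444, minus strand) was the only inducible gene read in both, with 43.2 and 18.5 TPM in replicates 1 and 2. Psmb10 stood at 61.9% of Psmb7 in replicate 1, where Psmb7 was at its lower value, and at 5.69% in replicate 2.

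Summed, the 3 inducible genes made 7.35% of the TPM of all 6 catalytic genes in replicate 1 and 1.17% in replicate 2 (4.26 ± 4.37%, n = 2). Leukocytes are the cells that use these forms most, and 3 of their 10 markers were read at 1 TPM or more in replicate 1 and 4 in replicate 2, with summed levels of 89.2 and 85.8 TPM. Ptprc, Cd74, H2-Aa, H2-Ab1 and Cd68 had 0 counts in both libraries. Lyz2 led the others with 81.3 and 43.3 TPM, Laptm5 had 1.5 and 6.48 TPM, Csf1r had 6.26 TPM in replicate 1 and a count of 1 in replicate 2, and Coro1a and Cd52 had 3 and 0 counts in replicate 1, against 18.7 and 17.3 TPM in replicate 2. The part of leukocytes in the inducible genes was not tested. In whole-heart RNA, fewer cells of a type and less RNA per cell cannot be told apart. Psmb11, the beta5 form of thymus epithelium, had 0 counts in both libraries, as had Foxn1, Ccl25 and Prss16 of the same tissue. In CPM, counts scaled to a library total of 1000000, a count of 0 allows a level of up to 0.0756 in replicate 1 and 0.0916 in replicate 2.

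**Figure D2:**
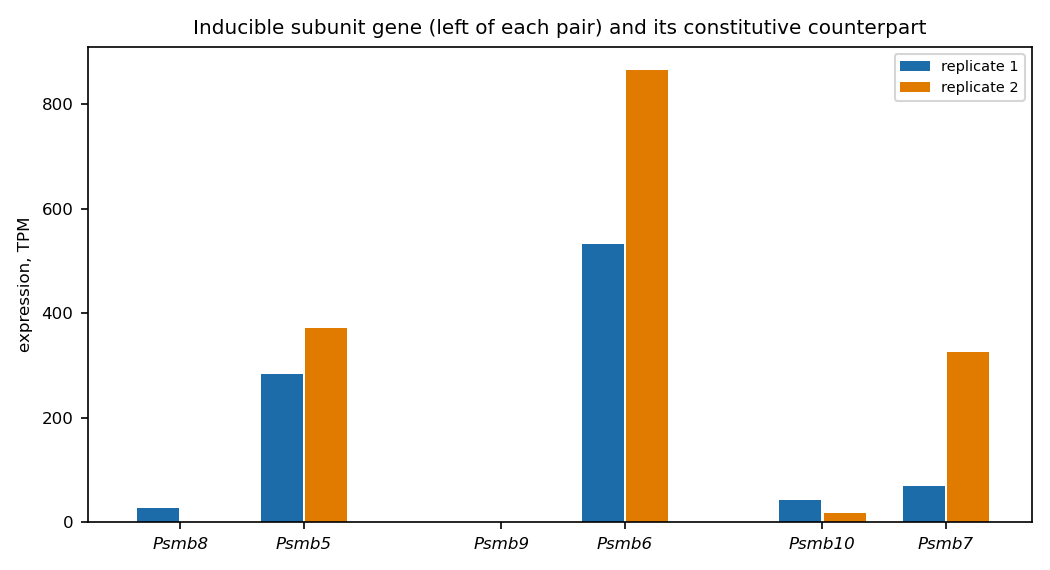
TPM of the 3 inducible catalytic genes, each left of its constitutive counterpart, with a bar per library. Each inducible gene is below its counterpart in both libraries, and the closest pair is Psmb10 with 43.2 TPM beside Psmb7 with 69.8 TPM in replicate 1.

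The promoters of the catalytic genes except Psmb7 are shown because the constitutive and inducible sets are known for different control. No window was available for Psmb7, so the constitutive set is incomplete. The factor NFE2L1 drives constitutive proteasome genes through antioxidant response elements, and interferon gamma drives the inducible ones. Each window runs from 250 bases before to 50 bases after the RefSeq start of the gene (GRCm38.p6, the assembly of mm10), 5′ to 3′ on the gene's strand, and RefSeq starts can differ from the gene ends given above. Capitals mark matches to TGACNNNGC, the core of the antioxidant response element, or to TTCNNNGAA, the gamma-activated site, searched on both strands, and no match of 1 overlapped a match of the other.
Psmb5 (chr14:54617946-54618245, minus strand): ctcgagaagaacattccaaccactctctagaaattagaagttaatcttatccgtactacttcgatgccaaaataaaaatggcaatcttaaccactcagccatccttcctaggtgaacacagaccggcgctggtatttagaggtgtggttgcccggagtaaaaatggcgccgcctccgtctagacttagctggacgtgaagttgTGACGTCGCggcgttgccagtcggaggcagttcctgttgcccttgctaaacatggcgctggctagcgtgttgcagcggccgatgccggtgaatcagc
Psmb6 (chr11:70525107-70525406, plus strand): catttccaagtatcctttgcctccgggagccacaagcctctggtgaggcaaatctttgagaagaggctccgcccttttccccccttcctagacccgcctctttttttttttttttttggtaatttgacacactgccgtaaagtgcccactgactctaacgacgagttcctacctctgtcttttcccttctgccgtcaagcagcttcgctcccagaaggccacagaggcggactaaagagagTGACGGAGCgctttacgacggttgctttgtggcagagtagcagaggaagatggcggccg
Psmb8 (chr17:34197945-34198244, plus strand): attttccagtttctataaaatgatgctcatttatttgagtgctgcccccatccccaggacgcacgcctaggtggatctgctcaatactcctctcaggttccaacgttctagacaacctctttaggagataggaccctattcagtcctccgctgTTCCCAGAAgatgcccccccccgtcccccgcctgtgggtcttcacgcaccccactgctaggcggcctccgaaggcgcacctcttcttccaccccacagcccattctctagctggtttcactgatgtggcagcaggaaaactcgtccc
Psmb9 (chr17:34187281-34187580, minus strand): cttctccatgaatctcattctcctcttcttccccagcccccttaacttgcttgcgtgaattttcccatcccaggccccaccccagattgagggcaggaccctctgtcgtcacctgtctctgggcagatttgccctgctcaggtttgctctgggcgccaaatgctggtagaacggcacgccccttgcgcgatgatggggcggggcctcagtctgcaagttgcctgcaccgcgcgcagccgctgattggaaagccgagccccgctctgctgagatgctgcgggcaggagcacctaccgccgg
Psmb10 (chr8:105938343-105938642, minus strand): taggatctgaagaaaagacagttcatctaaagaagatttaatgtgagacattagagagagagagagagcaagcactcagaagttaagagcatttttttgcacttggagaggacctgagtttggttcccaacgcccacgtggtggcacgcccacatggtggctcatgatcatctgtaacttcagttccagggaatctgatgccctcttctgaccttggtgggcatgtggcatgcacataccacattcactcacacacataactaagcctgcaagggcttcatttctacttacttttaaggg

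TGACNNNGC was found at position −47 of Psmb5 and −9 of Psmb6, counted from the start site, and TTCNNNGAA at position −97 of Psmb8. Neither was found in the windows of Psmb9 and Psmb10. The 42 members with a window had 45 windows. Members are counted here by gene and all promoters by window, so the units of the shares differ slightly. TGACNNNGC occurred in 6 members (14.3%), the others being Psmc6, Psmd12, Psmd9 and Psme4, against 12.4% of all 32851 promoter windows. TTCNNNGAA occurred in 3 (7.14%), the others being Psmd2 and Psmg1, against 8.30% of all windows. These shares lie near those of promoters at large, and a match of letters is a description of the sequence, not of a bound site.

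On chromosome 17, Psmb8 and Psmb9 lie beside the peptide transporter genes of antigen presentation, while Psmb10 is on chromosome 8. Psmb8 starts 495 bases beyond Tap1, and Psmb9 overlaps Tap1 by 212 bases on the opposite strand, so reads of the overlap cannot be assigned without strand. Tap1 was without counts in replicate 1 and reached 12.2 TPM in replicate 2, the opposite of its neighbour Psmb8. Tap2, the second transporter chain, had 15.6 and 21.4 TPM in replicates 1 and 2.

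The 6 ATPases of the cap had a class median of 163 ± 16.3 TPM, and the libraries disagreed on which led. Psmc3 (Rpt5) was highest in replicate 1, with 255 TPM against 199 TPM in replicate 2. Psmc4 (Rpt3, chromosome 7, 28041707 to 28050101, minus strand) had 4416 counts and 104 TPM in replicate 1, and 16739 counts and 495 TPM in replicate 2. Psmc5 (Rpt6) had 136 and 336 TPM in replicates 1 and 2, and Psmc2 (Rpt1) had 72.2 and 149.65 TPM. These 3 ATPase genes were over 2-fold higher in replicate 2, although Psmc2 passed narrowly, with a log2 ratio of −1.04 that became −0.97 when the libraries were scaled with TMM factors and −0.93 with DESeq2 factors. By contrast, Psmc1 (Rpt2, 166 and 125 TPM), Psmc3 and Psmc6 (Rpt4, 179 and 124 TPM) were 1.28-fold to 1.44-fold higher in replicate 1. Although the ATPases form a ring of equal copies, their transcripts were thus 3.53-fold apart from lowest to highest in replicate 1 and 4.0-fold in replicate 2.

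The other subunits of the cap base were Psmd1 (Rpn2), Psmd2 (Rpn1) and Psmd4 (Rpn10), the last a receptor for ubiquitin. Psmd2 had 225 and 138 TPM in replicates 1 and 2, and Psmd1 had 112 and 98.0 TPM. Psmd4 had 137 and 281 TPM, a log2 ratio of −1.03 that passed 2-fold as given but not with TMM factors (−0.96) or DESeq2 factors (−0.92).

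The 8 genes of the lid, which covers the base and removes ubiquitin, had a median of 127 and 113 TPM in replicates 1 and 2. Psmd14, the gene of the deubiquitinase Rpn11, was among the steadiest, at 123 ± 7.31 TPM. Psmd8 (Rpn12) led the lid in both libraries, with 188 and 256 TPM, followed by Psmd7 (Rpn8) in its mean, with 138 and 206 TPM. Psmd6 (Rpn7) had 112 and 129 TPM, Psmd11 (Rpn6) 158 and 108 TPM, Psmd12 (Rpn5) 125 and 81.9 TPM, and Psmd3 (Rpn3) 76.4 and 49.95 TPM. All of these were within 2-fold between the libraries.

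Psmd13 (Rpn9) was the lid gene over 2-fold apart, with 4366 counts and 88.4 TPM in replicate 1, against 936 counts and 37.0 TPM in replicate 2. In CPM, not divided by length, the gap was wider, at 110 and 28.6. Its transcripts differed as well. The leading coding transcript of replicate 1 held 71.7% of the gene in replicate 1 and 26.3% in replicate 2, where a transcript that could not be matched to a name held 39.7%. Transcripts known to be protein-coding made up 81.7% of Psmd13 in replicate 1 and 29.3% in replicate 2. The kind of the unmatched transcript is unknown, so the coding share in replicate 2 may be higher.

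The median core gene stood above the median cap gene in each library. The median core gene had 266 TPM in replicate 1, against 136 TPM for the median cap gene, and 326 TPM in replicate 2, against 129 TPM. That is a core to cap ratio of 1.95 in replicate 1 and 2.53 in replicate 2, or 1.15 ± 0.27 on the log2 scale (n = 2). Of the 14 core genes, 13 exceeded the cap median in replicate 1 and all 14 did in replicate 2. Core transcripts are shorter (median 990 nt, against 1559 nt for the cap), and in CPM, which is not divided by length, the log2 ratio was 0.31 ± 0.13.

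**Figure D3:**
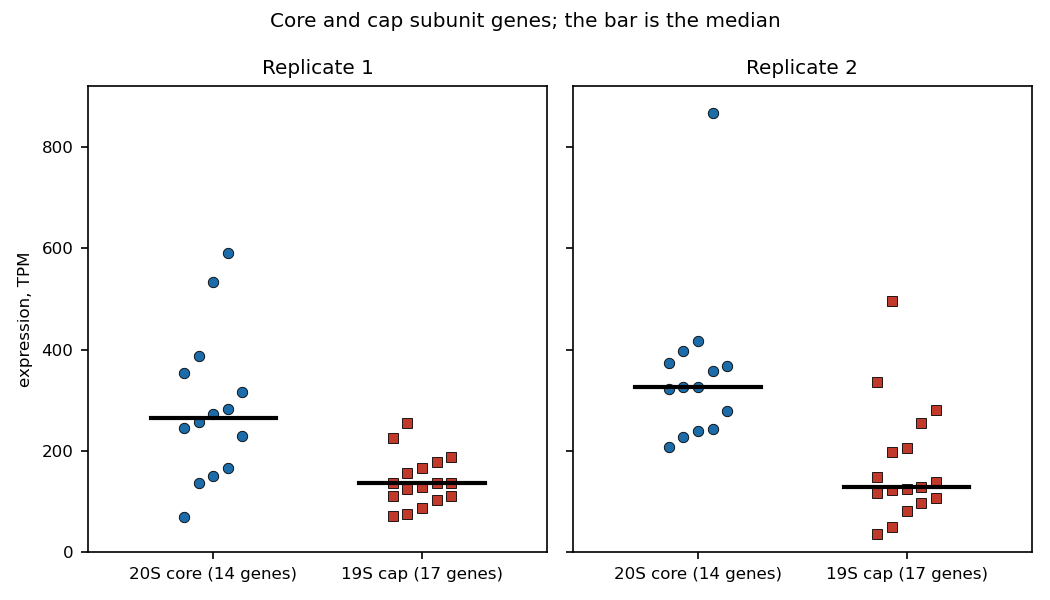
TPM of the 14 core genes and the 17 cap genes in each library, with a point per gene and a bar at the median. The core medians of 266 and 326 TPM lie above the cap medians of 136 and 129 TPM, and the groups overlap.

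The activators are caps that open the core without ATP. Psme1 and Psme2, neighbours on chromosome 14 with 5911 bases between them, encode the alpha and beta chains of PA28, the activator linked to the immunoproteasome. Psme1 had 236 and 373 TPM in replicates 1 and 2, and Psme2 had 172 and 203 TPM. Psme1 lay within the range of the core genes in both libraries, Psme2 within it in replicate 1 and just under its low end of 207 TPM in replicate 2, and both above Psmb8, Psmb9 and Psmb10. Psme1 exceeded Psme2 by 0.66 ± 0.30 on the log2 scale, and by 0.35 ± 0.35 over protein-coding transcripts alone, where the difference equals its spread. Retained-intron transcripts held 19.6% and 17.5% of Psme1.

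Psme3, the gene of the nuclear activator PA28 gamma, was steady and lower, with 24.8 and 27.6 TPM in replicates 1 and 2. Its log2 ratio over Psme1 was −3.45 ± 0.36 in TPM and −2.06 in CPM. Psme2b, a near copy of Psme2 on chromosome 11, had 2.54 and 2.40 TPM from 60.6 and 48.7 expected counts. The authors' posterior SD of that count was 7.53% and 8.36% of it, the widest of the members with more than 3 counts, and reads can be shared with Psme2. Psme4, the gene of the large activator PA200, had 1573 counts and 8.13 TPM in replicate 1, against 76 counts and 0.429 TPM in replicate 2.

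Psmf1, the gene of the regulator PI31, was nearly unread by 1 library. It had 2199 counts and 29.7 TPM in replicate 1 and a count of 1 in replicate 2. By read share the ratio was 1815, with a counting interval of 325 to 71738 that does not cover loss of molecules before sequencing.

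Chaperones of core assembly were all read in both libraries, at lower levels than the rings they build. Psmg1 and Psmg2 encode the PAC1 and PAC2 pair that assembles the alpha ring, and Psmg3 and Psmg4 the PAC3 and PAC4 pair. Psmg1 had 56.6 and 37.4 TPM in replicates 1 and 2. Psmg2 had 26.0 and 87.8 TPM and was over 2-fold higher in replicate 2, whereas its partner was higher in replicate 1. Psmg3 had 25.5 and 35.7 TPM and Psmg4 had 46.8 and 85.4 TPM, both within 2-fold.

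The chaperones of the cap base were more uneven. Psmd5 (S5b) had 35.7 and 38.5 TPM in replicates 1 and 2, and Psmd9 (p27) had 8.95 and 13.6 TPM. Psmd10, the gene of gankyrin on chromosome X, had 0 counts in replicate 1 and 1477 counts (40.8 TPM) in replicate 2. With 3 counts as the limit for replicate 1, its read share was at least 596-fold higher in replicate 2, a bound that covers counting error only. Psmc3ip, the recombination gene, had 9.61 and 15.1 TPM, of which 100% and 65.9% lay on retained-intron transcripts.

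A mean level of at least 5 TPM was reached by 45 of the 50 genes, and 11 of these (24.4%) differed over 2-fold between the libraries. Among all 8266 mouse genes past the same filter, 54.6% did. Psmb8, Psmb10, Psmd13 and Psmf1 were over 2-fold higher in replicate 1 (4 genes, where 26.9% of all genes were). The 7 over 2-fold higher in replicate 2 were Psmb7, Psmc2, Psmc4, Psmc5, Psmd4, Psmd10 and Psmg2 (27.7% of all genes). With TMM or DESeq2 factors 9 remained, without Psmc2 and Psmd4. The median log2 ratio of replicate 1 over replicate 2 was −0.20 for the 45 genes and −0.01 for all 8266 genes.

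The same comparison was made at set levels. Among the 31 members at a mean level of at least 100 TPM, 5 differed over 2-fold (16.1%), and of all 1241 genes at that level 20% did. Of 6 members with a mean between 10 and 30 TPM, 3 had under 3 counts in 1 library, namely Psmb8, Psmf1 and Psmd10. At that level 22.5% of all 3028 genes did. The 6 genes are few, and nothing particular to the members is read from their count.

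**Figure D4:**
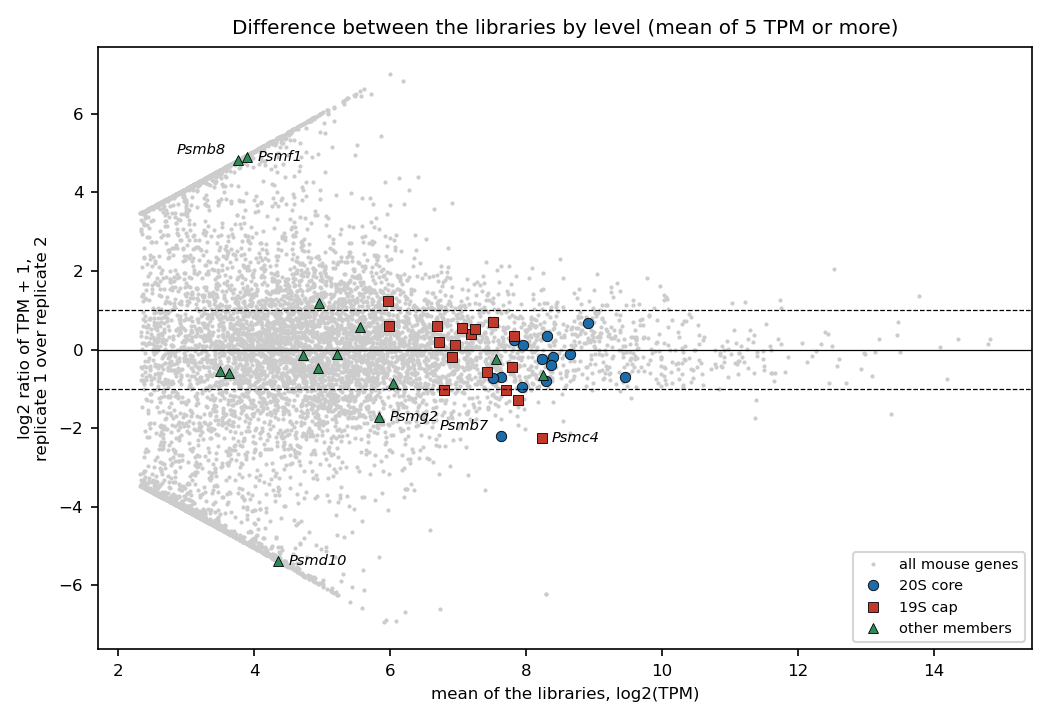
Log2 ratio of TPM + 1, replicate 1 over replicate 2, against the mean level on a log2 axis, for all 8266 mouse genes that average at least 5 TPM (grey) and the 45 members (coloured by class). Dashed lines mark 2-fold, and 34 members lie between them, with Psmf1 and Psmb8 at the top edge and Psmd10 at the bottom edge.

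The order of the genes was compared between the libraries. Across all 50 genes, Spearman's rho between the libraries was 0.84 and Pearson's r on log2(TPM + 1) was 0.81. Across the 14 core genes rho was 0.58, and across the 17 cap genes it was 0.29 (r 0.34). These values describe genes that share the same 2 libraries and are not independent points. The class medians ran from beta ring to alpha ring, ATPases and other cap subunits in both libraries.

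The transcript that led each gene was mostly the same. Of 35 genes with several listed transcripts that both libraries read, 32 had the same leading transcript, and Psmb4, Psmd13 and Psme2 did not. For Psmb4, a retained-intron transcript held 53.2% in replicate 1 and 43.7% in replicate 2, and the coding one held 46.1% and 54.6%. For Psme2, the leading coding transcript of replicate 1 held 57.7% and 42.9%, and that of replicate 2 held 35.1% and 44.5%. Protein-coding transcripts made up over 90% of TPM in both libraries for 35 of 44 genes with 3 counts or more in each.

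**Figure D5:**
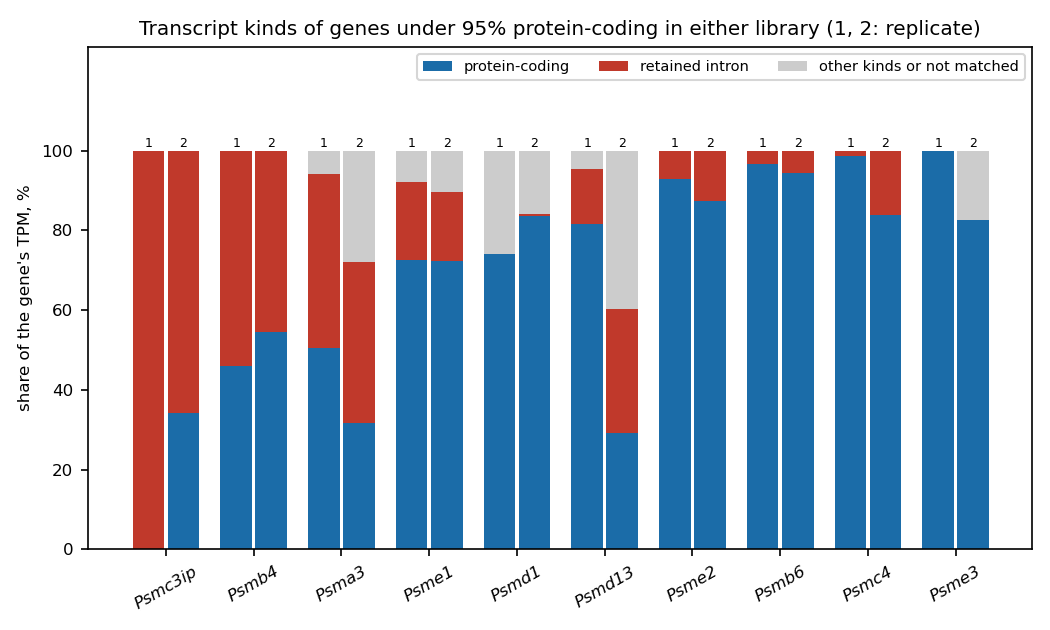
Share of each gene's TPM on protein-coding, retained-intron and other or unmatched transcripts, in percent, for the 10 genes with 3 counts or more in both libraries and under 95% protein-coding in either, with replicate 1 left and replicate 2 right. Psma3, Psmb4 and Psmc3ip carry over 40% on retained-intron transcripts in both libraries. Psmd13 has 81.7% on transcripts known to be protein-coding in replicate 1 and 29.3% in replicate 2, where an unmatched transcript of unknown kind holds 39.7%.

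Partners of the proteasome outside the naming rule were also read widely. Both libraries read 33 of 45 genes in 8 lists at no less than 1 TPM, or 73.3% beside the 28.4% of protein-coding genes. Of 40 that averaged at least 5 TPM, 16 differed over 2-fold (40% beside 54.6% of all genes), with 7 above in replicate 1 and 9 above in replicate 2. The median level over the lists was 36.9 TPM, and their median log2 ratio was −0.52. Ubb, which encodes a chain of ubiquitin units, had 3612 and 2302 TPM in replicates 1 and 2. Rps27a, which fuses ubiquitin to a ribosomal protein, had 684 TPM in replicate 1, against 329 TPM in replicate 2.

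Among subunits and cofactors without the Psm symbol, Pomp, which guides beta ring assembly, had 186 and 206 TPM, and Sem1, a small cap subunit, had 129.7 and 219 TPM. Adrm1, the ubiquitin receptor Rpn13, had 113 and 95.4 TPM, and its partner deubiquitinase Uchl5 had 17.5 and 44.7 TPM. Usp14, a second deubiquitinase of the cap, had 66.9 and 102 TPM, Txnl1, a thioredoxin-like protein bound to the cap, had 44.3 and 53.1 TPM, and Ecpas, a proteasome adaptor, had 15.3 and 27.6 TPM. These stood within the range of the cap genes or below it. Akirin2, which brings proteasomes into the nucleus, had 467 counts (11.1 TPM) in replicate 1 and 0 counts in replicate 2.

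On the log2(TPM + 1) scale, the gene most apart between the libraries in these lists was Trim54, a muscle ubiquitin ligase, with 18.2 TPM in replicate 1 and 0 counts in replicate 2. Some further genes are named after their values were seen. Trim63, the ligase MuRF1 of muscle wasting, had 120.3 and 15.0 TPM, and Fbxo32, atrogin-1, had 0.698 and 13.6 TPM, in the opposite direction. Of the 5 muscle ligases, 3 were over 2-fold higher in replicate 1 (26.9% of all genes). Only 1, Fbxo32, was over 2-fold higher in replicate 2 (27.7% of all genes). Nfe2l1, the factor that drives proteasome genes, had 47.5 and 39.5 TPM. Of 8 class I peptide supply genes, 5 were read in both, with B2m highest at 163 and 287 TPM, while Nlrc5 had 0 counts in both libraries.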

How the data were processed

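RNA of newborn hearts was sequenced in 2 libraries, with a gene table and a transcript table each. Per the file headers, the deposited tables give expected counts (estimated reads, which need not be whole), their posterior means and TPM, and, for transcripts, the isoform percent within the gene. Deposited notes name mm10 and the GENCODE M4 annotation; the aligner is not named in the sources used here. Names, types and coordinates were looked up by identifier in GENCODE M21 (GRCm38), so models can differ from those counted; 219 of the 224 transcripts of the members matched. Promoters came from RefSeq (GRCm38.p6).

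TPM was rescaled to 1000000 over mouse genes. Log ratios use a pseudocount of 1, which understates changes of low genes, and a mean of 5 TPM or more; over 2-fold is called different. The libraries held about 40648700 and 33173400 expected counts (replicates 1 and 2). Counting error is wide only for the lowest genes, but it does not cover loss of molecules before sequencing. Genes with many counts could still differ widely, as Psmf1 did with 2199 counts in replicate 1 and a count of 1 in replicate 2. The libraries hold different counts beyond read sampling noise and were used as 2 samples, which does not show how far their RNA differed. Pseudogene copies were found with minimap2 2.31-r1302 (90% identity over 50% of the length). Scaling factors came from edgeR 4.0.16 (TMM) and DESeq2 1.42.0, with rounded expected counts as input. Calculations used Python 3.11.15. All members are named by class; of the pathway lists, the 4 highest genes, the one most apart and each cofactor, except that some of these are not reported here. Paaf1 was not used here. The members and lists were chosen with earlier results of these data known.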

Additional observations from a re-analysis of the deposited data

How the results depend on the processing

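Across 19 results (counts, the median ratio, the summed share, the pairs, the class medians, the core to cap ratio and the leading transcripts), 62 values were recomputed with another threshold, filter, pseudocount, unit, transcript set or scaling. Of these, 56 stayed within a set limit, 6 did not, and none changed sign. The limit was the SD of the libraries, 1.5 times for counts, and 0.1 for the median log2 ratio. Where the libraries differ much, the SD is wide, and staying within it is a weak check. Psmb8 over Psmb5, for instance, went from −5.94 to −7.62 with a pseudocount of 0.1, within its SD of 3.68. The 32 values from 1 library alone are no check of stability for levels and ratios, since with 2 libraries each lies within 1 SD of the mean. For instance, Psmb10 over Psmb7 was −4.06 and −0.68, and the immunoproteasome median 0.0307 and 27.1 TPM, without replicates 1 and 2. DESeq2 factors shift every log2 ratio by 0.11 and TMM by 0.07, and with DESeq2 factors the members' median was −0.093. In CPM, which is not divided by length, the log2 ratio was −2.06 for Psme3 over Psme1 and 0.31 for the core over the cap. The core to cap ratio is not in the list of planned results, and every alternative for it was chosen after seeing the data. Psmb9 over Psmb6 was −9.39 with a pseudocount of 1, −12.54 with 0.1 and −8.58 in CPM; with Psmb9 at or under the limit of 3 counts, such values depend on the pseudocount. Psme1 over Psme2 was 0.35 over protein-coding transcripts. No paired analysis was possible because there is 1 group. Of 6 members with a mean of 10 to 30 TPM, 3 had under 3 counts in 1 library, so a count of 0 limits the level in that library and not in the heart.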
